A study of Mus musculus with 12 samples.

Results

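The CXC chemokine genes described here are 10 of the 55335 genes in the deposited files, and they were chosen by gene symbol: Cxcl1, Cxcl2, Cxcl3, Cxcl5 and Ppbp, which attract neutrophils, Cxcl9, Cxcl10 and Cxcl11, which interferons induce, and Cxcl16 and Pf4, which belong to neither class. RNA-seq was performed on 12 libraries of bone marrow-derived dendritic cells (BMDCs) from C57BL/6 mice, in 4 groups of 3 replicates. The WT group came from mice carrying CreER, a tamoxifen-activated Cre recombinase, and was not stimulated. The KO group came from mice carrying CreER and a Ctcf gene flanked by loxP sites on both alleles (CreER;CTCF fl/fl), in which 4-OH tamoxifen, given on the first culture day, deletes Ctcf. The WTLPS and KOLPS groups are the same genotypes after lipopolysaccharide (LPS) at 100 ng/ml for 3 h. Whether the WT cultures also received 4-OH tamoxifen was not clear from the sources used here, so an effect of the drug cannot be told apart from that of the deletion. All cells were grown in GM-CSF, a growth factor, for 6 days and selected with CD11c beads, so that each library is a mixture of the CD11c+ cells of a culture.

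CXC chemokines are small secreted proteins that guide leukocytes through G protein-coupled receptors. Cxcl1, Cxcl2, Cxcl3, Cxcl5 and the processed product of Ppbp act on Cxcr2 of neutrophils, and NF-κB drives the transcription of most of their genes soon after a Toll-like receptor is engaged. Cxcl9, Cxcl10 and Cxcl11 act on Cxcr3 of activated T cells and NK cells, and their genes respond to interferons through STAT and IRF factors, with NF-κB contributing at Cxcl10. Cxcl16 is a membrane-bound ligand of Cxcr6 that can be shed, and Pf4 is best known from platelet granules. In dendritic cells, LPS is sensed by Tlr4, which signals through Myd88 to NF-κB and through Ticam1 to Irf3 and interferon-β. CTCF is a DNA-binding protein that anchors chromatin loops and the borders of topological domains.

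Total expected counts were 12769773 to 16586334 per library. The Ctcf mRNA averaged 1004 normalized counts in WT, 816 in WTLPS, 549 in KO and 540 in KOLPS, and its fold change of 1.83 lower in KO than WT (log2 change -0.87, SE 0.08, adjusted p = 3.9e-07, edgeR quasi-likelihood test with Benjamini-Hochberg adjustment) went with the labels. Dendritic cell markers summed to 7408 to 16097 TPM (a length-scaled share of transcripts) in every library, while those of B cells summed to at most 1.13 TPM. Ribosomal RNA took 5.165% of the counts of WTLPS replicate 2 and at most 1.185% elsewhere. That library and KOLPS replicate 2 stood apart from their replicates, with chi-square values per degree of freedom of 76.7 and 81.5 against the other WTLPS libraries, which had 29.5 between them, and of 28.5 and 30 against the other KOLPS libraries, which had 8.46. Without WTLPS replicate 2, the members called higher in KOLPS against WTLPS went from 2 to 1 and those with a lower interaction from 1 to 0, and without KOLPS replicate 2 those called lower in KOLPS against WTLPS went from 3 to 4, by Cxcl11 at a log2 change of -0.68, and those called higher in KOLPS against KO from 8 to 9, by Cxcl16 at 1.02. The chi-square values come from counts scaled by library totals with ribosomal RNA kept in, which can raise those of WTLPS replicate 2. Other WTLPS libraries stood apart in some members. For Cxcl1 replicate 1 had 7048 normalized counts against 5084 and 5418, and for Ppbp replicate 3 had 155 against 98.5 and 99.7. In such bulk samples, fewer cells of a type and less RNA per cell cannot be told apart. The p-values measure the spread between samples labelled as replicates.

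Of the 10 members, 9 lie on chromosome 5 in mm10 coordinates, and the members of each class lie in the same region. Pf4, of neither class, lies between Ppbp and Cxcl3. Going up the chromosome, the plus-strand genes are Cxcl5 (chr5:90759360-90761624), Ppbp (chr5:90768518-90770063), Pf4 (chr5:90772435-90773383), Cxcl3 (chr5:90786103-90789600), Cxcl1 (chr5:90891241-90893115) and Cxcl2 (chr5:90903871-90905938). A gap of 101640 bases separates Cxcl3 from Cxcl1. After a further gap of 1415408 bases follow the minus-strand genes Cxcl9 (chr5:92321347-92328079), Cxcl10 (chr5:92346638-92348889) and Cxcl11 (chr5:92359544-92365485), the last of which GENCODE classes as a polymorphic pseudogene, a gene that is coding in some strains only. Cxcl16 lies alone on the minus strand of chromosome 11 (chr11:70453983-70459984), where its 5′ end overlaps the plus-strand gene Zmynd15. Because the strand setting of the authors' counting was not given in the sources used here, the counts of Cxcl16 are uncertain to the extent that reads of Zmynd15 could enter them. The same holds for the plus-strand gene Art3, which spans Cxcl10 and Cxcl11, and for the pseudogene Gm2673, which overlaps Cxcl11, although both had too few counts to be tested.

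The sequences before the start sites of Cxcl1, Cxcl2, Cxcl3 and Cxcl10 are shown because the comparisons turn on these 4 genes. RefSeq promoter windows on GRCm38.p6, 250 bases before to 50 after the start, were matched for 7 of 10 members, all but Cxcl5, Cxcl11 and Cxcl16. The 250 bases before the start follow, 5′ to 3′ on the strand of the gene, from chr5:90890995-90891244 (+) for Cxcl1, chr5:90903649-90903898 (+) for Cxcl2, chr5:90785851-90786100 (+) for Cxcl3 and chr5:92348890-92349139 (-) for Cxcl10. Capitals mark matches on either strand to the form of a κB site, which is GGG, any 5 bases and CC, or to the form of an interferon response element, which is GAAA, any 2 bases and GAAA, with overlapping matches merged into 1 run.
Cxcl1: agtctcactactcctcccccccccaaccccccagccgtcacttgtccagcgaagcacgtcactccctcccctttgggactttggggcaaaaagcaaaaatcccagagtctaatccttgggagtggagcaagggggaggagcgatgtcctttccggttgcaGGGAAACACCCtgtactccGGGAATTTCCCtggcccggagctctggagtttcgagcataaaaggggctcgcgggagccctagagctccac
Cxcl2: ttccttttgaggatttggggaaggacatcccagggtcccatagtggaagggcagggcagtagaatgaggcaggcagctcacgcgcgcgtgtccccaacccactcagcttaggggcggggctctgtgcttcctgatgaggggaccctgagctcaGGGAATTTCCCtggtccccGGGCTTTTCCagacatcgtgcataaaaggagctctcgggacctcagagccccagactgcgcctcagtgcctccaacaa
Cxcl3: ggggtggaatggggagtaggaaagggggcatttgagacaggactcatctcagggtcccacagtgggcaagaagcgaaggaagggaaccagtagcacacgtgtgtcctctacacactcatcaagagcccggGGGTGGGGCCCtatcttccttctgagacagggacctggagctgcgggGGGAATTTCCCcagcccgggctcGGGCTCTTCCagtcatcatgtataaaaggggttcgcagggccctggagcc
Cxcl10: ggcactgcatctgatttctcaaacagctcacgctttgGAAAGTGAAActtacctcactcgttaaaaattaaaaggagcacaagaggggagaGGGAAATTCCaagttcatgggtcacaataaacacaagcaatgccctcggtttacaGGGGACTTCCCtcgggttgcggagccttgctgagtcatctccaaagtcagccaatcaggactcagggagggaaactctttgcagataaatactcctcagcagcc
The κB form is common, with a match in 50.8% of all 32817 promoter windows of this length, whereas the interferon form had a match in 3.43% and both forms in 1.3%. Cxcl1, Cxcl2 and Cxcl3 shared GGGAATTTCCC, at -71 to -61, -97 to -87 and -73 to -63 from the RefSeq start site. RefSeq and GENCODE place the start of Cxcl2 differently. Its 250 bases run to 90903898, past the GENCODE gene start at 90903871, so its site lies nearer to the latter start. On either strand, the 10 letters GGGAATTTCC occurred in 29 of the 32817 windows (0.0884%), and among the 7 members in these 3, a search that was chosen after the matches had been seen. Cxcl10 held the forms of both classes, with GAAAGTGAAA at -213 to -204, GGGAAATTCC at -159 to -150 and GGGGACTTCCC at -104 to -94. The Cxcl9 window had GGGTTTTCCCC at -130 to -120, and those of Pf4 and Ppbp held neither form. These matches are descriptions of letters and were not tested for binding.

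The first comparison asks how WT BMDCs changed these genes within 3 h of LPS. The 3 interferon-induced members and 4 of the 5 neutrophil-attracting members rose, and Ppbp fell. A member was called at an adjusted p under 0.05 and a fold change over 2, by which 7 of 10 members were higher and 1 was lower, against 12.6% of the 14008 genes tested called higher and 9.99% called lower. All 10 members passed the filter on low counts, but Cxcl11 reached 10 counts in no library without LPS and Cxcl5 in 1 of 6, so both passed through the LPS libraries and had to differ. Median log2 changes were 2.89 over the 5 neutrophil-attracting and 5.60 over the 3 interferon-induced members, against -0.02 over all genes tested.

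Among the neutrophil attractants, Cxcl3 rose from 1929, 1582 and 1410 normalized counts in the WT libraries to 34805, 28534 and 27584 in WTLPS, an 18.5-fold change (log2 change 4.21, SE 0.17). Cxcl1 rose from 625, 538 and 499 to 7048, 5084 and 5418, or 10.6-fold (3.40, SE 0.14). Cxcl2 was already high at 4818, 4491 and 4106 and reached 26792, 23520 and 25331, a 5.64-fold change (2.5, SE 0.09). The groups did not overlap for any of these 3 genes, and adjusted p-values in edgeR's quasi-likelihood test were at most 4.7e-11. Cxcl5, a neutrophil attractant better known from epithelium, stayed scarce, at 9.19, 6.71 and 6.05 normalized counts in WT and 62.0, 53.1 and 50 in WTLPS (2.89, SE 0.28, adjusted p = 6.3e-07). Ppbp moved the other way, from 345, 321 and 337 to 98.5, 99.7 and 155, which is 2.82-fold lower (-1.50, SE 0.15, adjusted p = 7.6e-07).

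The interferon-induced members had little mRNA before LPS except for Cxcl10. Cxcl10 rose from 787, 851 and 930 normalized counts to 42638, 41953 and 39613, a 48.3-fold change (log2 change 5.60, SE 0.08, adjusted p = 6.8e-15). Cxcl9 rose from 15.6, 26.8 and 38.0 to 1009, 869 and 962 (5.12, SE 0.20). Cxcl11 rose from 5.51, 4.19 and 5.19 to 530, 507 and 484 (6.64, SE 0.18). Each WTLPS library was above each WT library for all 3 genes. Cxcl16 went from 3976, 4251 and 4036 to 6429, 7315 and 7533 and Pf4 from 492, 533 and 534 to 717, 695 and 663, changes of 0.80 and 0.41 on the log2 scale that passed the p threshold (adjusted p = 5.3e-07 and 0.0081) and not the fold cutoff. The sign for Pf4 depended on the scaling, since on log2(TPM + 1) the median of all genes moved by -0.44 between WT and WTLPS and Pf4 by -0.08.

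**Figure D1:**
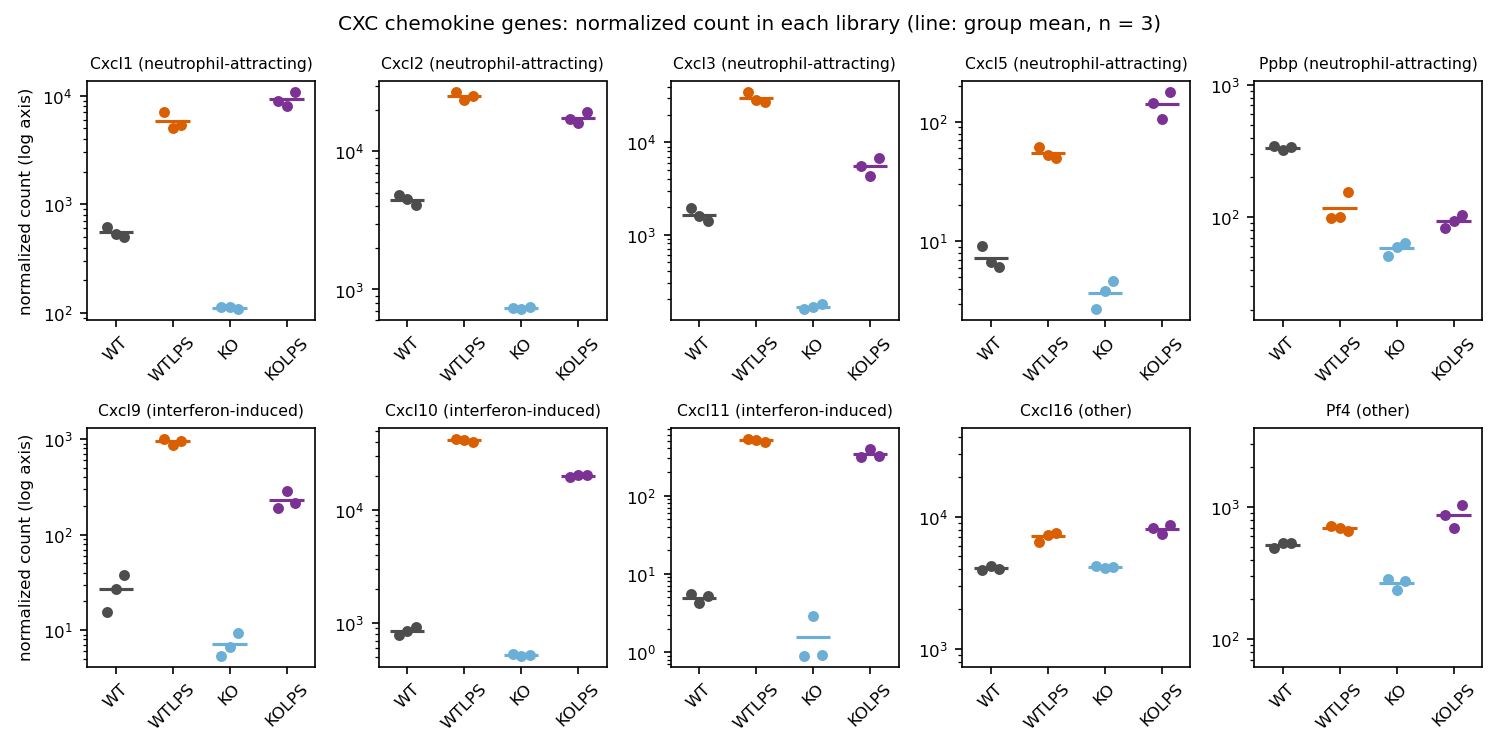
Normalized counts (log axis) of the 10 CXC chemokine genes in each of the 12 libraries, with points for libraries and a line at the group mean of 3. Cxcl1, Cxcl2 and Cxcl3 were lower in every KO library than in any WT library, whereas after LPS Cxcl1 was higher in KOLPS than WTLPS and Cxcl3 lower.

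The second comparison, KO against WT without LPS, asks what loss of CTCF did to the genes at rest. No member rose and 8 of 10 fell at an adjusted p under 0.05 and a fold change over 1.3, against 17.3% of all genes tested called higher and 17.2% called lower. The highest log2 change was 0.03, for Cxcl16, and the falls covered Cxcl1, Cxcl2, Cxcl3, Ppbp, Cxcl9, Cxcl10, Cxcl11 and Pf4. Median log2 changes were -2.52 over the 5 neutrophil-attracting and -1.60 over the 3 interferon-induced members, against -0.01 over all genes tested.

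Cxcl3 had 154, 165 and 175 normalized counts in the KO libraries, 9.94-fold below WT (log2 change -3.31, SE 0.17, adjusted p = 1.7e-09). Cxcl2 had 737, 717 and 748, 6.09-fold below WT (-2.61, SE 0.09). Cxcl1 had 114, 113 and 108, 4.94-fold below WT (-2.31, SE 0.15). The KO libraries lay close together for all 3 genes and did not overlap with WT. Ppbp had 51.1, 59.5 and 63.9 normalized counts in KO, 5.74-fold below WT (-2.52, SE 0.16, adjusted p = 1.4e-08). Cxcl5 had 2.69, 3.84 and 4.63, a difference from WT of -0.95 (SE 0.44) that did not pass (adjusted p = 0.099).

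Cxcl10 fell less than these, to 539, 514 and 521 normalized counts, 1.63-fold below WT (log2 change -0.71, SE 0.07, adjusted p = 2.4e-06). Cxcl9 had 5.38, 6.72 and 9.26 in KO (-1.91, SE 0.40, adjusted p = 0.0014), a call that was lost on log2(TPM + 1), with adjusted p = 0.08 in limma. For Cxcl11 the KO libraries were at the floor of 3 counts a library, with 5 counts in KO against 17 in WT, a ratio of 3.20 (95% exact interval 1.13 to 11.1, counting error only), and its call (adjusted p = 0.032) was lost in DESeq2 (adjusted p = 0.066). Pf4 had 287, 236 and 278 (-0.96, SE 0.12, adjusted p = 2.1e-05). Cxcl16, at 4204, 4120 and 4185, overlapped with WT and differed by 0.03 (SE 0.08, adjusted p = 0.79), and by -0.29 on log2(TPM + 1), where the median of all genes moved by -0.104.

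Neutrophil markers moved with these falls. Beside the marker counts that follow, 17.3% of all genes tested were called higher and 17.2% lower in KO against WT. In KOLPS against WTLPS 12.5% were called in each direction. All 6 of the 8 neutrophil markers that could be tested were lower in KO than WT, 5 of them also in KOLPS than WTLPS, and the list summed to 375 to 399 TPM in WT, 348 to 443 in WTLPS, 193 to 225 in KO and 288 to 332 in KOLPS. Ngp, a secondary granule protein, fell from 61.2 to 88.2 normalized counts in WT to 2.88 to 4.63 in KO, while the defining marker Ly6g was at the floor in both. After LPS, Ly6g, which had too few counts to be tested, went the other way, with 1.35 to 3.25 normalized counts in WTLPS and 10.7 to 19.9 in KOLPS. Ngp had the largest fall among the tested neutrophil markers. S100a8, the marker of that list with the most TPM, fell 1.36-fold in KO. It was not called after LPS, with 855 to 1025 normalized counts in WTLPS and 796 to 1009 in KOLPS. Dendritic cell markers also changed, with 4 of 7 lower and 1 higher in KO. Their sum went from 10840 to 11397 TPM in WT to 7408 to 7718 in KO. Of 5 macrophage markers, 2 were higher and 3 lower in KO, and the list summed to 461 to 501 TPM in WT, 572 to 596 in KO, 178 to 249 in WTLPS and 166 to 228 in KOLPS. Megakaryocyte and platelet markers, relevant for Pf4 and Ppbp, summed to at most 3.76 TPM in every library, with the platelet glycoprotein gene Gp1bb at 0 in WTLPS, KO and KOLPS, against 142 to 149 TPM of Pf4 in WT. The part of the neutrophil, dendritic cell and macrophage shares in the chemokine differences was not tested.

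The third comparison, KOLPS against WTLPS, asks the same after LPS, and here the neutrophil-attracting members split. Cxcl1 and Cxcl5 were higher in KOLPS, Cxcl3, Cxcl9 and Cxcl10 were lower, and the other 5 members did not pass both thresholds. That made 2 of 10 called higher and 3 lower, at a fold change over 1.5, against 12.5% of all genes tested called in each direction. Median log2 changes were -0.34 over the 5 neutrophil-attracting and -1.04 over the 3 interferon-induced members, against -0.03 over all genes tested.

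Cxcl1 reached 8849, 8072 and 10706 normalized counts in KOLPS, above each WTLPS library and 1.57-fold higher (log2 change 0.66, SE 0.13, adjusted p = 0.00068). That call sat near the fold cutoff: without WTLPS replicate 2 the log2 change was 0.56 and without KOLPS replicate 3 it was 0.54, both under the cutoff. Cxcl5 reached 143, 105 and 177, or 2.59-fold higher (1.37, SE 0.20, adjusted p = 6.4e-05). Cxcl3 reached only 5591, 4300 and 6699, below each WTLPS library and 5.48-fold lower (-2.45, SE 0.15, adjusted p = 1.5e-08). Cxcl1 and Cxcl3, which carry the same 11-base κB form near their start sites, differed in opposite directions. Cxcl2 lay between them, at 17105, 15957 and 19364, without overlap with WTLPS (-0.53, SE 0.08, adjusted p = 0.00014) but under the fold cutoff, which it passed on log2(TPM + 1) at -0.60. Ppbp had 82.8, 93.6 and 104, overlapping with WTLPS (-0.34, SE 0.17, adjusted p = 0.12).

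The interferon-induced members were lower in KOLPS than WTLPS, 2 of 3 past the fold cutoff. Cxcl10 reached 19435, 20439 and 20417 normalized counts, 2.06-fold below WTLPS (log2 change -1.04, SE 0.07, adjusted p = 2.9e-08). Cxcl9 reached 192, 287 and 215, 4.10-fold below (-2.04, SE 0.15, adjusted p = 9.4e-08). Cxcl11 reached 309, 390 and 322, below each WTLPS library (-0.58, SE 0.10, adjusted p = 0.00032) and just under the fold cutoff. Neither remaining member was called: Cxcl16 had 8275, 7411 and 8637 (0.19, SE 0.08, adjusted p = 0.052), and Pf4 had 875, 695 and 1040 (0.33, SE 0.12, adjusted p = 0.033), and both overlapped with WTLPS.

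**Figure D2:**
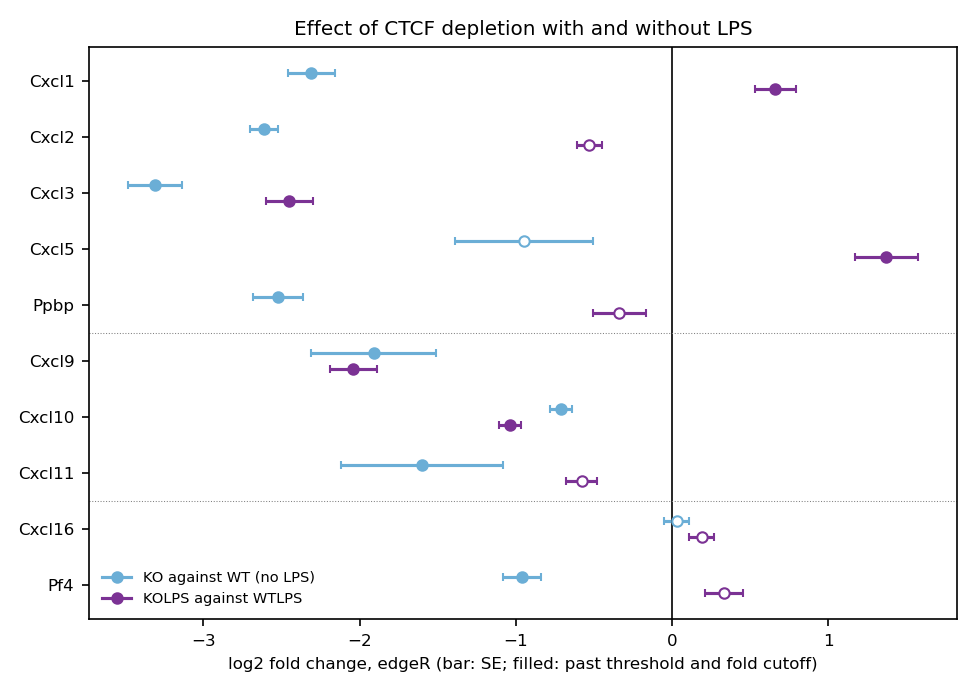
Log2 fold change (x axis, bars show the SE) of each CXC chemokine gene in KO against WT and in KOLPS against WTLPS, filled where both the p threshold and the fold cutoff were passed. Without LPS no gene lies clearly above 0, while with LPS Cxcl1 and Cxcl5 lie above 0 and Cxcl3, Cxcl9 and Cxcl10 below.

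The LPS response of the KO cells themselves, KOLPS against KO, was called higher for 8 of 10 members and lower for 0, against 15.1% and 13.0% of all genes tested. Of the 8, Cxcl5 and Cxcl11 reached 10 counts in no KO library, so both passed the filter through the LPS libraries and had to differ. All 10 log2 changes were above 0, and Ppbp and Cxcl16 were the exceptions among the calls, with log2 changes of 0.68 (SE 0.18) and 0.96 (SE 0.08) that passed the p threshold alone. Cxcl1 rose 82.2-fold (log2 change 6.36, SE 0.17), Cxcl5 37.1-fold (5.21, SE 0.29), Cxcl3 33.5-fold (5.07, SE 0.18) and Cxcl2 23.8-fold (4.57, SE 0.10). The Cxcl5 value rests on 3, 4 and 5 counts in the KO libraries. Cxcl10 rose 38.3-fold (5.26, SE 0.08) and Cxcl9 31.9-fold (5.0, SE 0.28). For Cxcl11, at the floor in KO, the summed counts were 5 in KO and 922 in KOLPS, a ratio of 219 (95% exact interval 93.6 to 677, counting error only). Pf4 rose 3.26-fold (1.70, SE 0.12). Adjusted p-values for the called members were at most 2.1e-08.

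Whether the LPS response differed between genotypes was tested with the interaction, the log2 LPS response in KO minus that in WT. It was positive and passed for all 5 neutrophil-attracting members and for Pf4, and for none of the 3 interferon-induced members, of which Cxcl10 passed with a negative value. That made 6 of 10 members higher and 1 lower at an adjusted p under 0.05, against 8.7% and 8.75% of all genes tested. This comparison is built from the same 12 libraries as the others, so a gene that is low in KO and near WTLPS in KOLPS has a positive interaction.

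The interaction was 2.96 (SE 0.20, adjusted p = 6.2e-07) for Cxcl1, where the response was 7.78-fold larger in KO. For Cxcl2 it was 2.08 (SE 0.12, adjusted p = 2e-07) and for Cxcl5 2.32 (SE 0.49, adjusted p = 0.0047). Ppbp fell with LPS in WT and not in KO, with an interaction of 2.18 (SE 0.23, adjusted p = 3.3e-05). Cxcl3, which was lower in KO with and without LPS, had the smallest value of the class, 0.86 (SE 0.22, adjusted p = 0.016), and its call was lost in limma on log2(TPM + 1) (adjusted p = 0.076). Pf4 had 1.29 (SE 0.17, adjusted p = 0.00016). In the interferon-induced class, Cxcl9 had -0.13 (SE 0.55, adjusted p = 0.91), Cxcl11 1.03 (SE 0.53, adjusted p = 0.28) and Cxcl10 -0.34 (SE 0.10, adjusted p = 0.034). The SEs of Cxcl9 and Cxcl11 leave room for differences in either direction, since both were scarce without LPS. The Cxcl9 value turned to 0.20 without WT replicate 1 and went as low as -1.65 among the alternatives. The Cxcl10 call was lost when any of 9 of the 12 libraries was left out, with adjusted p up to 0.2. Cxcl16 had 0.16 (SE 0.11, adjusted p = 0.33).

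**Figure D3:**
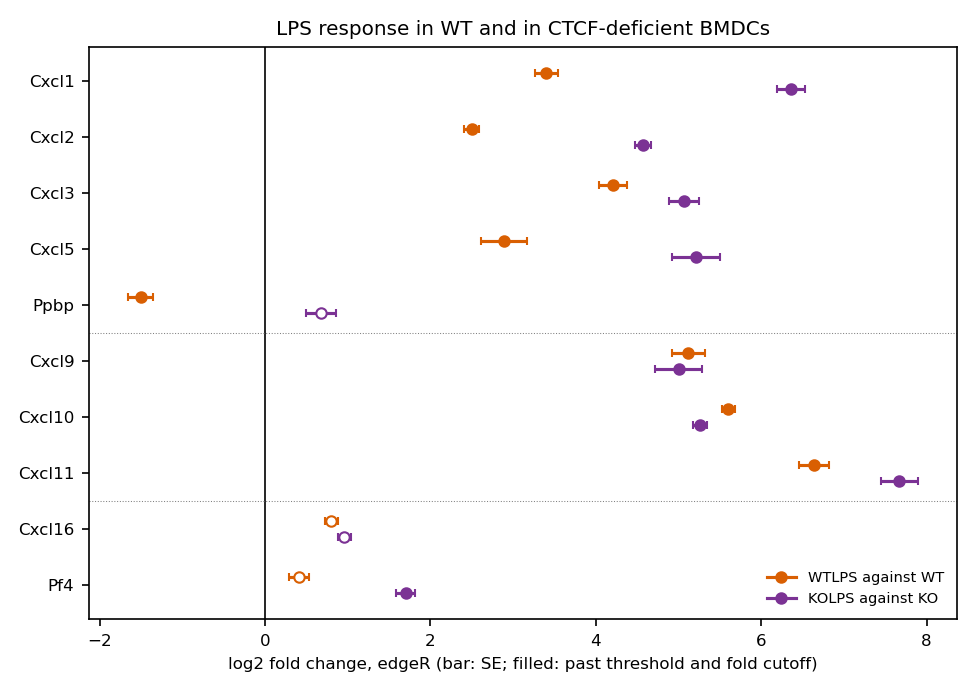
Log2 fold change with LPS (x axis, bars show the SE) of each CXC chemokine gene in WT and in KO cells, filled where the p threshold and the 2-fold cutoff were passed. For Cxcl1, Cxcl2, Cxcl3, Cxcl5, Ppbp and Pf4 the KO value lies to the right of the WT value, while for Cxcl9 and Cxcl10 both lie close together. The fitted Cxcl11 value in KO rests on 5 counts without LPS, and that of Cxcl5 on 3, 4 and 5 counts in the KO libraries.

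Levels can be set side by side between genes in TPM, which is scaled by transcript length. The 10 members summed to 1412 ± 77.3 TPM (SD, n = 3) in WT, 10230 ± 1121 in WTLPS, 484 ± 6.93 in KO and 5187 ± 134 in KOLPS, or 0.141%, 1.02%, 0.0484% and 0.519% of all TPM. The 4 groups did not overlap. In WT the neutrophil-attracting members held 60.5% ± 2.79 of the members' TPM and in KO 24.8% ± 0.929, where Cxcl16 and Pf4 held 56.5% ± 0.721. After LPS that class held 49.1% ± 1.83 in WTLPS and 49.5% ± 4.53 in KOLPS, and the interferon-induced class 46.3% ± 1.62 and 40.0% ± 6.03, with ranges that overlap.

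The order of levels differed between groups. In WT, Cxcl2 led at 560 ± 37.3 TPM, ahead of Cxcl16 at 248 ± 7.72, and Cxcl3 (188 ± 37.5), Cxcl10 (159 ± 17.1) and Pf4 (147 ± 4.16) followed, of which Cxcl10 overlapped with both others. In WTLPS, Cxcl10 led at 4657 ± 414, ahead of Cxcl3 at 2466 ± 403 and Cxcl2 at 2058 ± 223. The ranges of Cxcl3 and Cxcl2 overlap, but Cxcl3 was higher within each WTLPS library. In KO, Cxcl16 led at 203 ± 6.31, and Cxcl10 (89.6 ± 1.86) and Cxcl2 (83.5 ± 4.82) overlapped behind it. Within each KO library Cxcl10 was above Cxcl2. In KOLPS, Cxcl10 led again at 2048 ± 303, followed by Cxcl2 at 1357 ± 60.2 and Cxcl1 at 761 ± 108 without overlap, and then by Cxcl3 (440 ± 94.6) and Cxcl16 (369 ± 49.2), which overlap. Within each KOLPS library Cxcl3 was nonetheless above Cxcl16. Cxcl5 and Cxcl11 had the lowest levels without LPS, at most 0.59 TPM. The TPM of Cxcl9 in KOLPS spread from 4.88 to 15.1 although its normalized counts spread from 192 to 287, and TPM also depends on the isoform lengths that RSEM assigns.

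The balance between Cxcl1 and Cxcl3, a ratio chosen after their values had been seen, shows the split within the neutrophil-attracting class. Cxcl1 was at 0.346 to 0.384 of the Cxcl3 TPM in the WT libraries and at 0.187 to 0.212 in WTLPS. It was at 0.607 to 0.721 in KO and at 1.64 to 1.95 in KOLPS, the group in which Cxcl1 exceeded Cxcl3 in every library. Expected counts were not whole, at the 2 decimals deposited, in 11 of 12 libraries for Cxcl16, in 10 each for Cxcl2 and Cxcl3 and in 4 for Cxcl10, so that RSEM divided some of their reads with other genes or positions, and the values of these 4 genes are uncertain to that extent. Counts of Cxcl1, Cxcl5, Ppbp, Cxcl9, Cxcl11 and Pf4 were whole in all libraries.

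**Figure D4:**
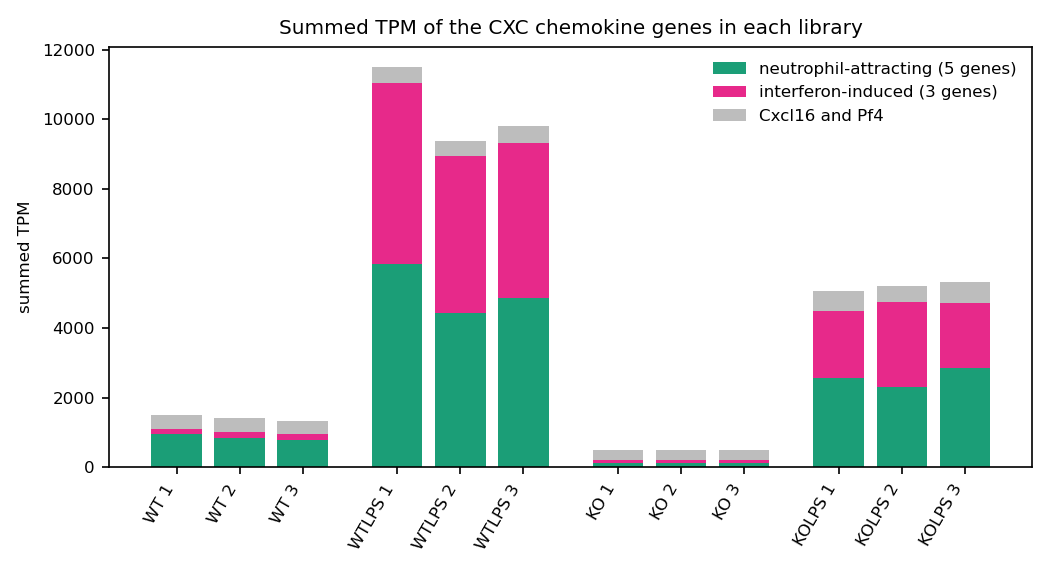
Summed TPM (y axis, from 0) of the CXC chemokine genes in each library, stacked by the 5 neutrophil-attracting members, the 3 interferon-induced members and Cxcl16 with Pf4. KO libraries sum to 480 to 492 TPM and KOLPS libraries to 5050 to 5317, below the 9388 to 11502 of the WTLPS libraries.

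Of the 5 further CXC chemokine genes Cxcl12, Cxcl13, Cxcl14, Cxcl15 and Cxcl17, only Cxcl14 had enough counts to be tested, and it was higher in KO and in KOLPS. Cxcl14, a chemokine expressed by many epithelia, had 17.5 to 29.4 normalized counts in WT and 894 to 1009 in KO, 41.9-fold higher (log2 change 5.39, SE 0.13, adjusted p = 1.9e-12, edgeR quasi-likelihood test). After LPS it had 13.5 to 17.0 in WTLPS and 557 to 636 in KOLPS (5.24, SE 0.15). Its LPS response did not pass for an interaction (-0.15, SE 0.27, adjusted p = 0.78).

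Among 8 receptor genes, 5 could be tested, and 2 were called higher and 0 lower in KO against WT as well as in KOLPS against WTLPS, where 17.3% and 17.2% of all genes tested were called in the first comparison and 12.5% each in the second. They were Ackr1, a decoy receptor at the floor in WT and WTLPS, with Cxcr2 in the first comparison and with Cxcr4 in the second. Ackr1 could pass the filter on low counts only through the KO and KOLPS libraries, so it had to differ. Cxcr4, the receptor of Cxcl12, fell with LPS from 1030 to 1163 normalized counts in WT to 105 to 149 in WTLPS, and from 1310 to 1318 in KO to 661 to 676 in KOLPS, an interaction of 2.21 (SE 0.14, adjusted p = 4.1e-07). Cxcr2, the receptor of the neutrophil-attracting members, was low, with 14.3 to 22.0 in WT and 37.1 to 44.2 in KO (1.15, SE 0.29, adjusted p = 0.0056), a direction opposite to that of the neutrophil markers. Cxcr3, the receptor of Cxcl9, Cxcl10 and Cxcl11, had at most 4.33 normalized counts in any library.

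Genes of the NF-κB pathway formed a list of 19 that includes Tlr4 and its co-receptors. With LPS, 12.6% of all genes tested were called higher and 9.99% lower in WT, and 15.1% and 13.0% in KO. Of the 19, 12 were called higher with LPS and 1 lower in each genotype. In KO against WT 0 were higher and 6 lower, against 17.3% and 17.2% of all genes tested, and in KOLPS against WTLPS 0 were higher and 4 lower, against 12.5% each, with medians of -0.19 and -0.29, and by the p threshold alone 0 were higher in either comparison. Nfkbiz, an inducible nuclear IκB protein, fell with CTCF loss from 741 to 840 normalized counts in WT to 252 to 280 in KO and from 8034 to 8381 in WTLPS to 3409 to 3620 in KOLPS (log2 changes -1.55 and -1.24, SE 0.07 each). Myd88, the Toll-like receptor adaptor, fell by 0.58 and by 0.77 (SE 0.06 each), and its kinase partner Irak2 fell by 0.51 and by 0.79 (SE 0.07 each). Of the subunit genes, Relb was called lower in KO (-0.48, SE 0.12, adjusted p = 0.0053) and Rel passed the p threshold alone (-0.36, SE 0.09, adjusted p = 0.0036), while Rela (-0.30, SE 0.14, adjusted p = 0.098) and Nfkb1 (-0.08, SE 0.06, adjusted p = 0.3) passed neither.

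Genes of interferon production and signalling, 18 in a list of which 17 could be tested, were called higher for 3 and lower for 6 in KO against WT, and higher for 0 and lower for 3 in KOLPS against WTLPS. Of all genes tested, 17.3% were higher and 17.2% lower in the first comparison and 12.5% each in the second, so that the 3 higher in KO and the 3 lower after LPS are near the shares of all genes. Irf1, which binds interferon response elements, fell from 1534 to 1771 normalized counts in WT to 633 to 689 in KO (log2 change -1.32, SE 0.08) and from 6765 to 7652 in WTLPS to 3634 to 4106 in KOLPS (-0.92, SE 0.08). Stat2 (-1.11, SE 0.07), Irf7 (-0.93, SE 0.08) and Irf9 (-0.92, SE 0.07), which carry or amplify the interferon signal, were lower in KO than WT, with adjusted p at most 3.6e-07. After LPS these 3 genes differed by -0.08 to -0.35 and passed no fold cutoff. The genes called higher in KO were Ifnar1 (0.65, SE 0.12), Ticam2 (0.56, SE 0.13) and Ifngr2 (0.42, SE 0.08). Irf8 had the largest fall of the tested list in KOLPS against WTLPS (-1.09, SE 0.11) and differed by -0.15 (SE 0.11) in KO against WT. Ifnb1, which encodes interferon-β, had 2, 4 and 5 counts in WT and 0 in each KO library. It is 1 of the 6 called lower, a call that rests on these few counts. After LPS it had 136, 148 and 162 normalized counts in WTLPS against 117, 91.3 and 145 in KOLPS (-0.33, SE 0.18, adjusted p = 0.15).

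Genes linked to chemokine shedding or to the stability of inflammatory mRNAs, in either direction, formed a list of 8. In KO against WT 1 was called higher and 3 lower, among them Traf3ip2 (-0.61, SE 0.13), and after LPS 1 and 1. Of all genes tested, 17.3% and 17.2% were called in the first comparison and 12.5% each in the second, the share that 1 of 8 makes. Zc3h12a, an RNase that cleaves inflammatory mRNAs, differed by 0.02 (SE 0.09, adjusted p = 0.91) in KO and fell by 0.76 (SE 0.09, adjusted p = 1e-05) in KOLPS against WTLPS. Zfp36, which promotes decay of AU-rich mRNAs, fell by 0.89 in KO (SE 0.12, adjusted p = 3.6e-05), and its relative Zfp36l1 fell by 0.43 in KO and rose by 0.81 in KOLPS (adjusted p = 0.00085 and 4.2e-06). Adam10, which sheds Cxcl16, passed no fold cutoff in either comparison (0.23 and -0.32, SE 0.09 each). Adam17 was the gene of the list called higher in KO (0.64, SE 0.14, adjusted p = 0.002), and it differed by -0.13 (SE 0.14, adjusted p = 0.5) after LPS.

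The tested genes beside the chromosome 5 members are few. Within 100 kb of these members lie 19 other annotated genes, of which 6 could be tested, and in KO against WT 3 of these were called higher and 0 lower, against 17.3% and 17.2% of all genes tested. The 3 were Mthfd2l, 25179 bases from Cxcl2 (log2 change 0.91, adjusted p = 0.0016, edgeR quasi-likelihood test), and Ppef2 and Naaa. The latter genes lie 65069 and 43177 bases from Cxcl9 (0.84 and 0.38, adjusted p = 0.0005 and 0.0015). Between Naaa and Cxcl9, at 10868 bases from Cxcl9, lies Sdad1, which was not called (0.13, adjusted p = 0.18). In KOLPS against WTLPS 1 of 6 was higher and 0 were lower, against 12.5% of all genes tested each. The gene called higher was Nup54, 50055 bases from Cxcl11 (0.90, adjusted p = 3e-07). With 6 genes a count of 0 says nothing particular of the neighbours.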

How the data were processed

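RNA-seq data of 12 BMDC libraries in 4 groups were used, with groups and replicate numbers taken from the labels. The authors trimmed reads with Trim Galore and aligned them to mm10 with STAR, for which the submitters' processing notes name version 2.5.1 and the study's reporting summary another version, and they quantified GENCODE genes with RSEM. They deposited for each gene an expected count, RSEM's estimate, in which a read may be divided between genes, and the TPM, which the authors' RSEM run scaled to the same sum in every library. The labels name depletion of ribosomal RNA, while the methods name poly(A) selection. Libraries with 12769773 to 16586334 counts set the precision.

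Expected counts were rounded, scaled with TMM and filtered with filterByExpr, which left 14008 genes. The quasi-likelihood test of edgeR 4.0.16 (R 4.3.3) was fitted once to all 12 libraries. P-values were adjusted by the Benjamini-Hochberg method over all genes tested, with a threshold of 0.05. The fold had to exceed 2 in both LPS comparisons, 1.3 between KO and WT and 1.5 between KOLPS and WTLPS, with no cutoff on the interaction. To normalize, each count was divided by its effective library size and multiplied by the mean of these sizes. A group with at most 3 counts in every library is called at the floor. Fitted log2 changes include edgeR's prior count. The script was tested on simulated data. Alternatives used DESeq2 1.42.0 and limma 3.58.1, and each library was left out in turn. All members were named, with other genes taken from lists of receptors, pathways and cell markers. Members and lists were chosen with earlier results of these data known. Replicates were compared pairwise and no library was a duplicate of another. No protein sequences were used here.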

Additional observations from a re-analysis of the deposited data

Results flagged for a closer look

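The LPS response differed between genotypes, by the interaction test of edgeR with adjusted p under 0.05, for 7 of the 10 members. On the log2 scale, as the response in KO minus that in WT, the interaction was 2.96 for Cxcl1, 2.08 for Cxcl2, 0.86 for Cxcl3, 2.32 for Cxcl5, 2.18 for Ppbp, 1.29 for Pf4 and -0.34 for Cxcl10. Of all genes tested, 8.7% passed with a higher and 8.75% with a lower value. The neutrophil marker list, given beside the KO values, was lower in KO than WT, and its part in these differences was not tested. Groups of 3 libraries were not searched gene by gene for outlying samples.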

How the results depend on the processing

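Over 50 member results and their alternatives, 896 of 938 values kept their direction and their side of the threshold, 26 lost a call, 7 gained one and 9 changed sign. On log2(TPM + 1) and log2(TPM + 0.1), where the median of all genes moved by -0.44 and -0.52 with LPS in WT and by -0.38 and -0.45 in KO, Pf4 with LPS in WT turned to -0.08 and Cxcl16 in KO against WT to -0.29 under both, and the Cxcl11 interaction to -0.33 under the former. Cxcl16 in KO against WT also turned to -0.03 without WT replicate 1 and to -0.01 without WT replicate 3 (range -0.03 to 0.04 over the libraries left out), and the Cxcl9 interaction to 0.20 without WT replicate 1 and 0.10 without KO replicate 3 (range -0.39 to 0.20). Over the alternatives with all libraries the Cxcl9 interaction ranged more widely, from -1.65 to -0.1, and passed in none, with adjusted p of at least 0.058. In KOLPS against WTLPS, members called higher ranged from 1 to 2 when a library was left out (1 without WTLPS replicate 2 or KOLPS replicate 3, where Cxcl1 had 0.56 and 0.54), and without a fold cutoff 5 were lower in place of 3. Members with a lower interaction numbered 0 in place of 1 without the filter on low counts, with the replicate block and in limma on both TPM scales, and 0 to 1 when a library was left out. That member is Cxcl10, whose call held when WTLPS replicate 1, WTLPS replicate 3 or KOLPS replicate 2 was left out and was lost without any other library. The Cxcl11 call in KO against WT was also lost without the filter (adjusted p = 0.053) and without WT replicate 1, WT replicate 3, KO replicate 1 or KO replicate 3 (up to 0.13).

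No label says that libraries with the same replicate number share an animal. Deviations of same-numbered libraries from their group means correlated at -0.286 to 0.112. These values cannot exclude a pairing, since other spread between libraries could hide it. Under the replicate block the Cxcl10 interaction was -0.34 with adjusted p = 0.058, and no other member call changed.

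Over all genes, limma on log2(TPM + 1) and log2(TPM + 0.1) called 766 and 936 higher with LPS in WT (1766 in edgeR), 931 and 1188 in KO (2113), 1563 and 1509 in KO against WT (2427), and 607 and 470 with a lower interaction (1225). The latter scale called 3076 and 3197 lower with LPS in WT and KO (1400 and 1819), and the former 1133 higher in KOLPS against WTLPS (1751). Without a fold cutoff, 4209 were higher and 4224 lower with LPS in WT, 4704 and 4752 in KO, and 2991 and 3266 in KOLPS against WTLPS (1751 and 1752). Lower interactions ranged from 671 to 2013 when a library was left out. The causes were not tested. Depth limits Cxcl5, Cxcl9 and Cxcl11 without LPS.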

Other observations

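The genes whose log2 normalized counts followed a member most closely over the 12 libraries, among 9338 genes with a mean of at least 100 normalized counts, are given as a description, since these libraries share 4 groups and most of the likeness is the step between groups. Slfn2 followed Cxcl10 (Pearson's r = 0.9989), Mx1, an antiviral interferon-induced GTPase, followed Cxcl11 (0.9978), and Polb followed Cxcl9 (0.9955). Next for Cxcl9 were Rapgef2 (0.9932) and Cd274, the ligand PD-L1 (0.993). Pnp2 followed Cxcl3 (0.9972), Fam107b followed Cxcl2 (0.9963), and Idi1, an enzyme of isoprenoid synthesis, followed Cxcl1 (0.9961). Next for Cxcl2 were Epsti1 (0.9957) and Trim25 (0.9952). The closest genes to Ppbp and Pf4 were less alike, Cdc5l for Ppbp (0.9683) and Stk17b for Pf4 (0.976). Cxcl5 was too scarce to enter.

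Beside Cxcl16 on chromosome 11, Pld2, a phospholipase 80080 bases away, was higher in KO than WT (log2 change 1.59, adjusted p = 5.4e-10, edgeR quasi-likelihood test) and in KOLPS than WTLPS (2.33, adjusted p = 3e-11), and Med11, a Mediator subunit gene 256 bases away, was higher by 1.18 and 1.05, while Cxcl16 itself was called in neither comparison.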
